A study of Homo sapiens with 4 samples.

Results

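The genes described here are QKI and 4 other genes of the STAR family of RNA-binding proteins, KHDRBS1, KHDRBS2, KHDRBS3 and SF1. Their transcripts were read in U87, an established glioma line of human origin, in 4 samples. Per the labels, all 4 samples came from cells in which QK, the gene now named QKI, had been knocked down. The 2 miR-20a samples came from knockdown cells transduced with the microRNA miR-20a, and the 2 miR-NT samples from knockdown cells given a scrambled, non-targeting microRNA. The labels do not give the means of the knockdown, the vector or the time after transduction, nor do they say whether the samples of a group were separate cultures, so a p-value here reflects the spread between these samples alone, which may be technical. Members were the probe sets whose platform annotation names exactly 1 gene, that gene being one of the 5. All 5 were found among the 18304 genes so named. The rule gave 19 of the 41930 probe sets: 10 of QKI, 3 of KHDRBS1, 1 of KHDRBS2, 2 of KHDRBS3 and 3 of SF1. A probe set is a group of short array probes read together, and several probe sets of a gene can lie on different parts or forms of its transcript. No array of U87 cells without the knockdown was analysed here, so the values compare miR-20a with miR-NT within knockdown cells and do not measure the knockdown itself.

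STAR proteins take their name from signal transduction and activation of RNA, and each binds RNA through a single KH domain and conserved sequence beside it. QKI, quaking, binds short ACUAA-like elements and controls the splicing, stability and export of its target RNAs. In the brain it is best known for the maturation of oligodendrocytes and for frequent loss in glioma, and its transcripts are spliced into isoforms that differ in their last exons and 3′ untranslated regions. No probe set was assigned to a QKI isoform here, so differences between probe sets cannot be read as isoform differences. KHDRBS1 encodes Sam68, a splicing regulator and substrate of Src-family kinases, and KHDRBS2 and KHDRBS3 encode its relatives SLM1 and SLM2. SF1 recognises the intron branch point early in the assembly of the spliceosome.

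The transduced microRNA is shown with the human microRNAs of its family, because the seed, bases 2 to 8 in capitals, is the part that chiefly pairs with target RNAs. Sequences are the mature 5′ arms in RefSeq on GRCh38.p14, and miR-20a-5p lies at chr13:91351072-91351094 on the plus strand.
hsa-miR-20a-5p: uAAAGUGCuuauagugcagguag
hsa-miR-17-5p: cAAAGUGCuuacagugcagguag
hsa-miR-20b-5p: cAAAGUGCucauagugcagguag
hsa-miR-93-5p: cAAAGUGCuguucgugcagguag
hsa-miR-106a-5p: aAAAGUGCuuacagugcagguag
hsa-miR-106b-5p: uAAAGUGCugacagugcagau
All 6 share the seed, which 8 of the 2545 mature microRNAs in the table carry. Position by position, miR-17-5p has 21 bases in common with the 23 of miR-20a-5p and miR-106b-5p has 18. The arrays did not measure any of these mature microRNAs.

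The deposited table gives a log2 level per probe set, so a difference of 1 is a doubling. The 4 arrays had medians between 6.97 and 7.01 log2 units, and their pairwise correlations over probe sets lay between 0.9907 and 0.9961. There are no detection calls, so a low level cannot be told from background. Levels of different probe sets do not measure relative transcript amounts, and where they are set side by side it is by deposited value only. Each array pair shared at most 128 identical values, so none was a copy of another. Gene means in miR-NT cells ran from 4.33 for S100B to 11.47 for CHI3L1 over the 10 markers of glial and mesenchymal glioma cells. They ran from 4.53 for PTPRC to 7.99 for CD3E over 4 markers of blood cells and from 4.77 for CDH5 to 7.26 for PECAM1 over 5 of endothelium. For 5 epithelial markers the range was 4.59 for CDH1 to 7.32 for KRT5, and for 5 of neurons 6.06 for SYT1 to 8.28 for SNAP25. These ranges overlap, so the levels do not identify the cells, and that all samples were U87 rests on the labels. Of the glioma markers, 2 passed limma's test as lower in miR-20a cells, CHI3L1 with a change of -0.81 (adjusted p = 0.00942) and SOX9 with one of -0.55 (adjusted p = 0.0498), and no marker of the other 4 lists passed. SOX9 was at the edge of the threshold of 0.05, and with a block for the replicate number 0 gene means passed (limma). The part of these marker differences in the results below was not tested. For the ACTB controls, the 3′ level exceeded the 5′ level, a sign of RNA quality, by 0.27 ± 0.11 log2 units in miR-NT and by 0.49 ± 0.04 in miR-20a cells (SD, n = 2 each). It also moved with the groups, and its part was not tested.

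None of the 19 STAR probe sets passed the test between miR-20a and miR-NT cells, and their log2 changes ran from -0.43 to 0.18. The test was limma's moderated fit over 41920 probe sets with Benjamini-Hochberg adjustment and a threshold of 0.05, and 0.136% of all probe sets passed it. Of the 19 members, 2 had an unadjusted p under 0.05, both of QKI and both lower, against 17.9% of all probe sets in either direction and 8.4% in the lower one (limma). The median change was 0.01 for the 19 members and -0.02 for all probe sets. For 2 arrays against 2, the smallest p that exact permutation allows is 0.333, so the shared spread of limma carries the tests. The plot of changes with their intervals gives all 19 side by side.

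**Figure D1:**
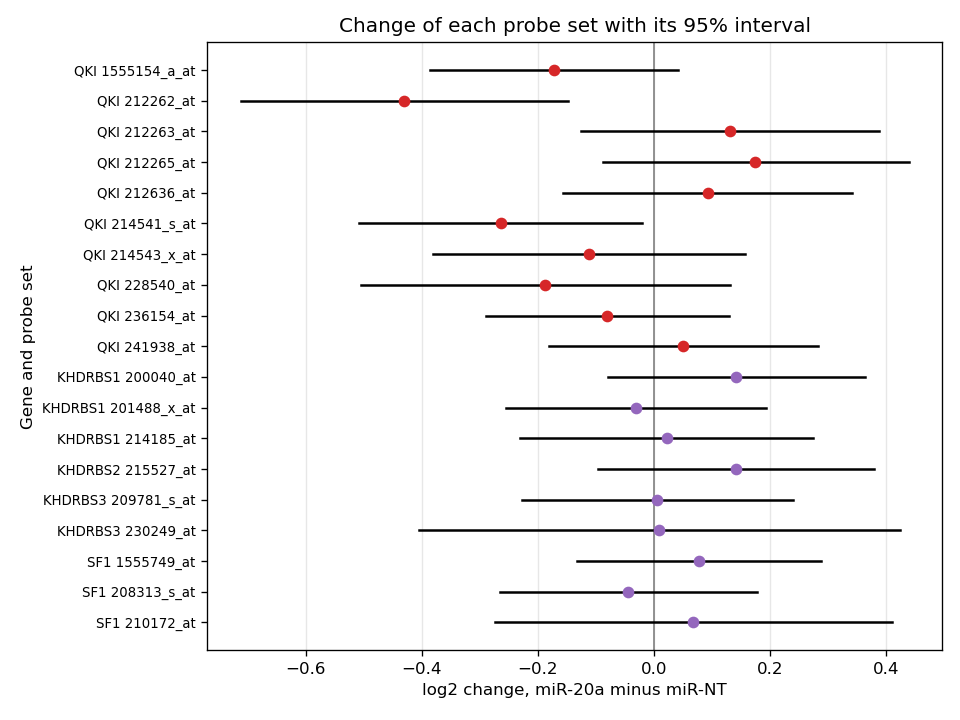
Each row is a probe set of a STAR gene. The dot is the log2 change, miR-20a minus miR-NT (2 arrays each), and the line its 95% interval from limma, unadjusted for the number of probe sets (red, QKI; purple, the other 4 genes). The intervals of QKI 212262_at and 214541_s_at lie below 0 and all others cover 0, and no probe set passed after adjustment.

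QKI, the gene knocked down in every sample, showed probe sets on both sides of 0: 6 of its 10 had a lower mean in miR-20a cells and 4 a higher one. In 4 of the 10 the groups did not overlap, all with miR-20a lower, beside 27.2% of all probe sets in that direction and 48.9% in either.

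The largest change among the QKI probe sets was that of 212262_at. It read 7.73 and 7.83 log2 units in miR-NT cells and 7.49 and 7.21 in miR-20a cells. Both miR-20a arrays were below both miR-NT arrays, with replicate 2 the lower of the pair. The difference was -0.43 ± 0.12 (SE; 95% interval -0.71 to -0.15), 1.35-fold lower, with a limma adjusted p of 0.168. Leaving out each array in turn gave differences from -0.57 to -0.29.

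Probe set 214541_s_at read 5.97 and 6.15 in miR-NT cells and 5.84 and 5.76 in miR-20a cells, a difference of -0.26 ± 0.10 (SE; limma adjusted p = 0.252) that lay between -0.35 and -0.18 when 1 array was left out. Probe set 1555154_a_at was tight on both sides, at 8.15 and 8.24 against 8.03 and 8.01, a difference of -0.17 ± 0.09 (SE; limma adjusted p = 0.367). Both had lower levels on each miR-20a array than on each miR-NT array. The platform annotation gives 1555154_a_at the same source mRNA record as 214543_x_at, so these probe sets are not separate evidence on different transcripts. The latter read 8.69 and 8.58 in miR-NT cells and 8.40 and 8.64 in miR-20a cells, and its groups overlapped. Its difference was -0.11 ± 0.11 (SE; limma adjusted p = 0.651).

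The other QKI probe sets with a lower mean were 228540_at and 236154_at. Probe set 228540_at read 7.26 and 7.21 in miR-NT cells and 7.23 and 6.86 in miR-20a cells. Its difference of -0.19 rested on miR-20a replicate 2, without which it was -0.004. Probe set 236154_at read 4.43 and 4.47 against 4.35 and 4.38, a gap of -0.08 near the lowest value of the arrays, which was between 3.45 and 3.52. Its groups did not overlap, its limma adjusted p was 0.681, and the gap was -0.036 after quantile normalization.

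The highest change of a QKI probe set was that of 212265_at. It read 9.18 and 9.38 log2 units in miR-NT cells and 9.53 and 9.38 in miR-20a cells. Only miR-20a replicate 1 stood above the others, and miR-NT replicate 2 and miR-20a replicate 2 were level. The difference was 0.18 ± 0.11 (SE; 95% interval -0.09 to 0.44; limma adjusted p = 0.452). It was 0.085 after quantile normalization, 0.078 without miR-NT replicate 1, 0.097 without miR-20a replicate 1 and up to 0.27 without one of the other arrays. Probe set 212263_at was likewise highest on miR-20a replicate 1, at 7.94 and 7.84 against 8.13 and 7.92, a difference of 0.13 ± 0.11 (SE; limma adjusted p = 0.569) that was 0.026 without that array and 0.24 without miR-20a replicate 2. The remaining pair, 212636_at and 241938_at, had differences of 0.09 and 0.05, and each turned negative when 1 array was left out. Probe set 212636_at was also near the lowest values, with means of 4.33 in miR-NT and 4.42 in miR-20a cells.

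**Figure D2:**
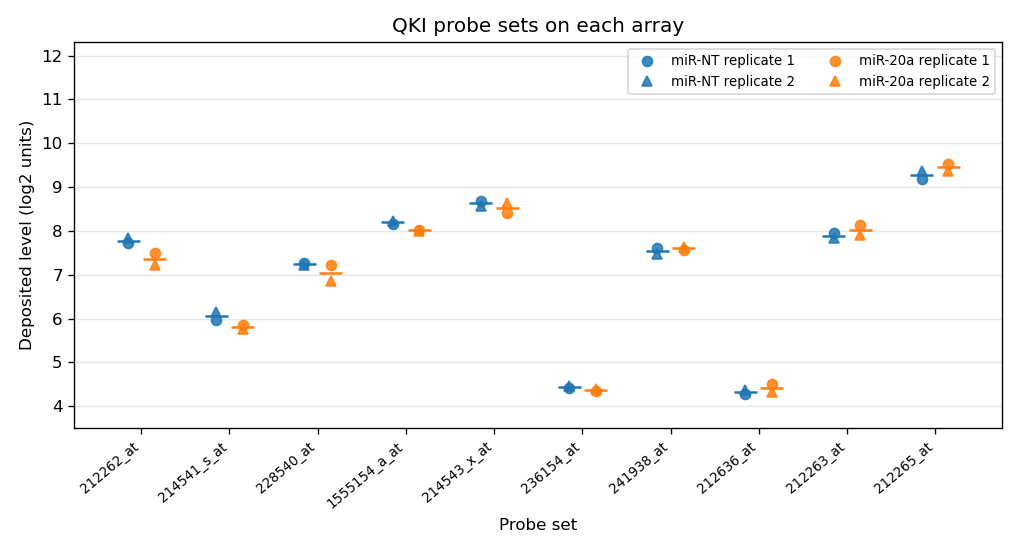
Deposited log2 level of the 10 QKI probe sets on each of the 4 arrays, ordered from the most negative to the most positive change. Points are arrays (circles, replicate 1; triangles, replicate 2; blue, miR-NT; orange, miR-20a) and short lines are group means. The 212262_at points of miR-20a, 7.49 and 7.21, lie below those of miR-NT, while 212265_at has its highest point, 9.53, on a miR-20a array.

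The sign of the QKI difference varied with the probe set and with the summary per gene, and none of these differences passed the test. Both signs were common among genes with many probe sets, as given below. The mean of all 10 probe sets was 7.12 and 7.15 log2 units in miR-NT cells and 7.11 and 7.01 in miR-20a cells. The groups just failed to overlap, as they did in 51% of all genes. The difference was -0.08 ± 0.08 (SE; 95% interval -0.26 to 0.10) with a limma adjusted p of 0.624 over 18304 genes, of which 0.836% passed. Leaving out 1 array moved it to between -0.13 and -0.032, the first without replicate 1 of miR-20a and the latter without replicate 2. In folds, the interval reaches from 0.834 to 1.07 times the miR-NT level. With the median of the probe sets in place of the mean the difference was -0.19, and with the probe set of highest level it was 0.18, with limma adjusted p-values of 0.286 and 0.385.

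Whether probe sets of QKI changed unequally was tested on each array as the level of a probe set minus the mean of the other 9, which removes what they share. None of the 18 members with a partner in their gene passed in this fit over 28996 probe sets, of which 0.0138% passed (limma, Benjamini-Hochberg). An unadjusted p under 0.05 was found for 2 of the 10 QKI probe sets, 1 in each direction, beside 13% of all. On each array these differences cancel out over the probe sets of a gene. Changes of both signs are thus forced, and the tests within a gene are not independent. The KHDRBS3 pair gives mirrored values. Relative to the other QKI probe sets, 212262_at stood at 0.68 and 0.75 log2 units in miR-NT cells and at 0.42 and 0.22 in miR-20a cells. That is a change of -0.39 ± 0.13 (SE; limma adjusted p = 0.277). Relative to the others, 212265_at stood at 2.29 and 2.47 in miR-NT cells and at 2.69 and 2.63 in miR-20a cells, a change of 0.28 ± 0.12 (SE; limma adjusted p = 0.380) that was 0.175 after quantile normalization. In neither case did the groups overlap, which held for 6 of the 10 QKI probe sets and 45.2% of all probe sets tested.

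**Figure D3:**
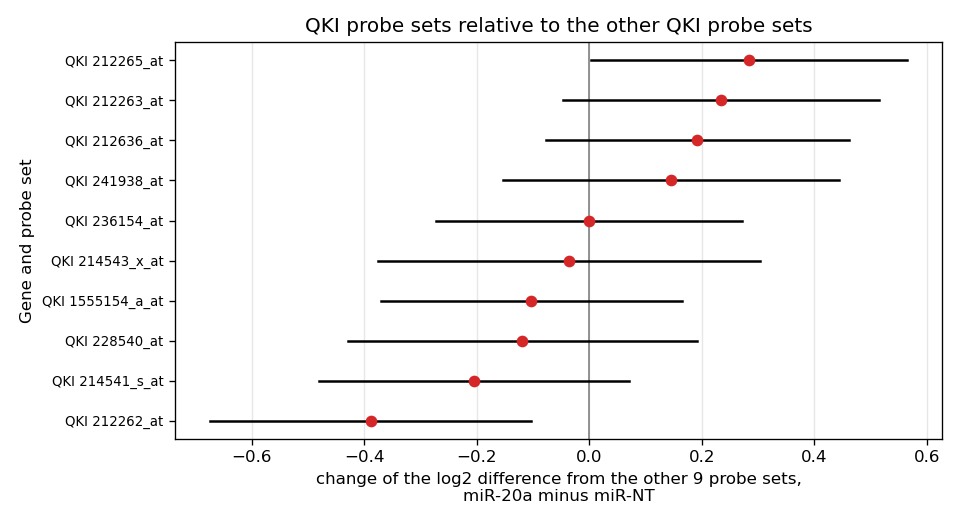
Each row is a QKI probe set. The dot is the change, miR-20a minus miR-NT, of its log2 difference from the mean of the other 9 QKI probe sets, and the line its 95% interval from limma, unadjusted. The interval of 212262_at lies below 0, that of 212265_at just above 0 (from 0.002), and the other 8 cover 0.

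The difference between these extreme probe sets, picked because they are the extremes and so given without a test, was 1.45 and 1.55 log2 units in miR-NT cells and 2.04 and 2.16 in miR-20a cells. Their changes thus lay 0.61 apart. Among the 99 genes with at least 8 probe sets the median of this range was 0.46 and the highest 1.06, and 16 genes had a wider range than QKI. Such a range tends to grow with the number of probe sets, and these genes were not matched to QKI in that number. Changes of both signs were seen in 93 of the 99. Whether any probe set of QKI departs from the rest was tested with limma diffSplice (F test over genes). This F test gave an unadjusted p of 0.0163 and an adjusted p of 0.236. It treats the probe sets of a gene as independent, although all were read on the same arrays. Of those of QKI, 1555154_a_at and 214543_x_at also share a source record, so the p may be too small. In the diffSplice tests of single probe sets, 12.4% of all had an unadjusted p under 0.05. The share of genes in the F test is not given here.

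KHDRBS1, which encodes Sam68, showed no difference past the test in any of its 3 probe sets. Probe set 200040_at read 10.95 and 11.04 log2 units in miR-NT cells and 11.18 and 11.10 in miR-20a cells, without overlap. The difference of 0.14 ± 0.09 (SE; limma adjusted p = 0.469) turned to -0.03 after quantile normalization. Probe set 201488_x_at read 10.80 and 10.92 against 10.86 and 10.79, and 214185_at read 8.19 and 8.23 against 8.12 and 8.34. Both overlapped, with differences of -0.03 and 0.02 that changed sign when single arrays were left out. The mean of the 3 probe sets differed by 0.04 ± 0.08 (SE; 95% interval -0.14 to 0.22; limma adjusted p = 0.806).

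Its relatives gave sparser readings. KHDRBS2, which encodes SLM1 and is known mainly from neurons, had 1 probe set, at 7.11 and 7.02 log2 units in miR-NT cells and 7.13 and 7.28 in miR-20a cells. Both miR-20a arrays were higher, replicate 1 by only a little, and the difference was 0.14 ± 0.10 (SE; 95% interval -0.10 to 0.38; limma adjusted p = 0.504). It ranged from 0.064 without miR-20a replicate 2 to 0.22 without miR-20a replicate 1. KHDRBS3, which encodes SLM2, had 209781_s_at at 8.83 and 8.95 in miR-NT cells and 8.84 and 8.96 in miR-20a cells. Its replicates within a group lay further apart than the group means, which differed by 0.01 ± 0.10 (SE; limma adjusted p = 0.988). The second KHDRBS3 probe set, 230249_at, was low and the most variable of the 19 in its SE. It read 4.78 and 5.18 against 5.18 and 4.81, with a 95% interval of -0.41 to 0.42 around a difference of 0.01.

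SF1, the branch-point binding protein, had differences of -0.05, 0.07 and 0.08 in its 3 probe sets. Probe set 208313_s_at read 10.52 and 10.40 log2 units in miR-NT cells and 10.43 and 10.40 in miR-20a cells. Its difference of -0.05 ± 0.09 (SE; limma adjusted p = 0.853) became 0.02 without miR-NT replicate 1. Probe set 210172_at read 6.03 and 6.43 against 6.34 and 6.25, so that the miR-NT arrays enclosed the miR-20a arrays. Probe set 1555749_at read 4.52 and 4.50 against 4.62 and 4.56, without overlap but near the bottom of the scale, with a difference of 0.08 ± 0.09 (SE; limma adjusted p = 0.698). The gene mean of SF1 differed by 0.03 ± 0.08 (SE; 95% interval -0.15 to 0.22).

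**Figure D4:**
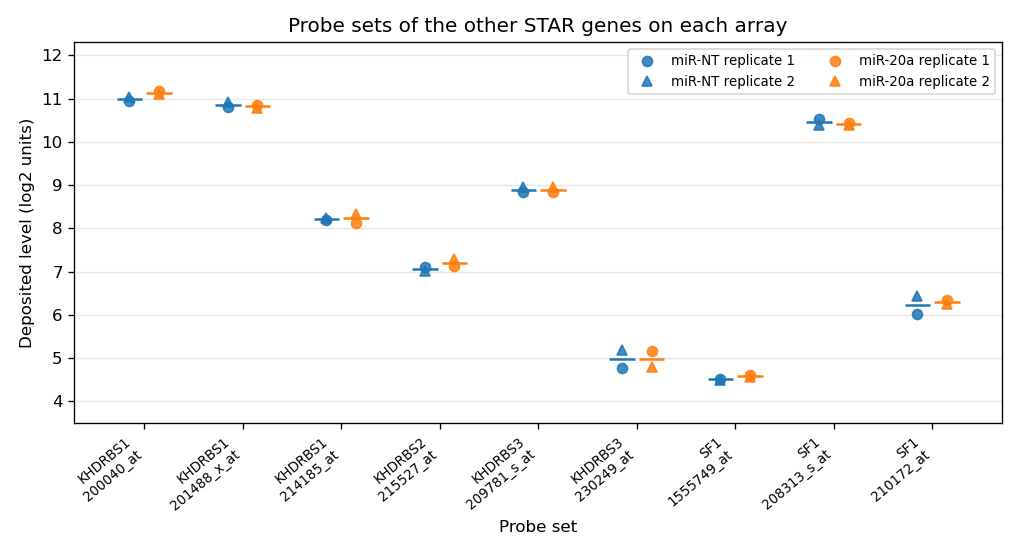
Deposited log2 level of the 9 probe sets of KHDRBS1, KHDRBS2, KHDRBS3 and SF1 on each of the 4 arrays, with points and lines as for QKI (circles, replicate 1; triangles, replicate 2; blue, miR-NT; orange, miR-20a; lines, group means). The group means differ by at most 0.14 log2 units for every probe set shown, and the miR-NT arrays of 230249_at and 210172_at are the most spread pairs.

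Across the family, the groups did not overlap in 7 of the 19 probe sets, 4 lower and 3 higher, beside 27.2% and 21.7% of all probe sets in these directions. Of the 5 gene means, 0 passed the test and 0 had an unadjusted p under 0.05, against 19.7% of all genes (limma). The widest 95% interval of a gene mean was that of KHDRBS3, from -0.24 to 0.26, and the highest upper bound was that of KHDRBS2, 0.35 on the log2 scale. A p that misses the threshold does not show that the levels were equal. These unadjusted intervals rest on the spread between these 4 arrays and on limma's shared spread, and changes beyond them are not excluded.

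The probe sets whose pattern over the 4 arrays came nearest to that of QKI 212265_at, by root mean square difference of the deviations from their own means, were those of PLEKHA5, CRIM1-DT and LY6K, at 0.0032, 0.0072 and 0.0086 log2 units. As many as 506 of the 22648 probe sets searched came within 0.05, so many other probe sets were nearly as close over these 4 arrays.

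Genes that work with the STAR proteins were read as gene means over all probe sets of a gene. None of the 5 lists had a member past the threshold over all genes (limma), and 19.7% of all genes had an unadjusted p under 0.05, 10.2% higher and 9.52% lower. The counts given for each list are of members with such a p.

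The partners of SF1 in recognising the 3′ splice site counted 19 measured genes, with 2 counted as higher and 3 as lower, 26.3% of the list. Their median change was 0.01. PRPF40B, a homologue of a yeast U1 splicing factor, read 7.47 and 7.50 log2 units in miR-NT cells and 7.17 and 7.14 in miR-20a cells, a difference of -0.33 ± 0.07 (SE; limma adjusted p = 0.0881). SF3B4, a subunit of the U2 particle, had a difference of -0.23, and HTATSF1, a U2-associated factor, one of 0.23, with limma adjusted p-values of 0.168 and 0.162. Among 17 enzymes and adaptors that act on STAR proteins, 4 counted as higher and 0 as lower by unadjusted p (limma), 23.5% of the list. Their median change was -0.02. UHMK1, the kinase that phosphorylates SF1, had the largest difference in the 5 lists. It read 8.32 and 8.71 in miR-NT cells and 9.20 and 9.08 in miR-20a cells, 0.62 ± 0.13 (SE; limma adjusted p = 0.0785), with all 3 of its probe sets higher. PIK3R1, a phosphatidylinositol 3-kinase subunit, and YES1, a Src-family kinase, had differences of 0.21 and 0.19 (limma adjusted p = 0.216 each).

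Of 18 measured transcripts reported as bound or regulated by QKI, 2 counted as higher and 0 as lower by unadjusted p (limma), 11.1% of the list. ADD3, which encodes gamma-adducin of the membrane skeleton, read 9.34 and 9.32 in miR-NT cells and 9.73 and 9.61 in miR-20a cells. Its difference was 0.34 ± 0.08 (SE; limma adjusted p = 0.0986), and all 4 of its probe sets were higher. CDKN1B, the cell cycle inhibitor p27, had 1 probe set at 7.77 and 8.09 against 8.47 and 8.27, a difference of 0.43 ± 0.12 (SE; limma adjusted p = 0.133). MACF1, a crosslinker of microtubules and actin, had a difference of -0.15, with 6 of its 8 probe sets of that sign. The median change of the list was -0.02, and that over all genes -0.02. Gene means cannot show a change in splicing, which is the form of regulation reported for several of these transcripts.

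Among 9 measured transcripts reported as spliced by Sam68 and its relatives, 2 counted as higher and 2 as lower by unadjusted p (limma). That is 44.4% of this short list, beside 19.7% of all genes. The median change was -0.10, against -0.02 over all genes, with 6 genes lower and 3 higher. Whether the list departs from all genes was not tested. BCL2L1, whose splice forms differ in their effect on cell death, read 9.05 and 9.15 in miR-NT cells and 8.71 and 8.75 in miR-20a cells. The difference was -0.37 ± 0.08 (SE; limma adjusted p = 0.0785), and all 4 of its probe sets were lower. NRXN3, a neurexin of synapses, had a difference of -0.21 and SGCE, epsilon-sarcoglycan, one of 0.22, with limma adjusted p-values of 0.201 and 0.181. Among the 30 other KH-domain proteins, 2 counted as higher and 5 as lower by unadjusted p (limma), 23.3% of the list. Their median change was -0.01. The poly(C)-binding protein gene PCBP4 had a difference of -0.35, MEX3D of -0.33 and FXR2, a relative of the fragile X protein, of -0.33, with limma adjusted p-values of 0.0889, 0.0858 and 0.112. When the lower 40% of gene means by level was left out, UHMK1 and ADD3 passed as higher and BCL2L1, PRPF40B, PCBP4 and MEX3D as lower, in a setting where 7.37% of all genes passed. The same 6 genes were under an adjusted p of 0.1 in the unfiltered fit, as were 4.18% of all genes. With a trend and robust fit, UHMK1, ADD3, BCL2L1 and PCBP4 passed at 0.05, as did 3.53% of all genes. No list gene passed under the other alternatives.

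**Figure D5:**
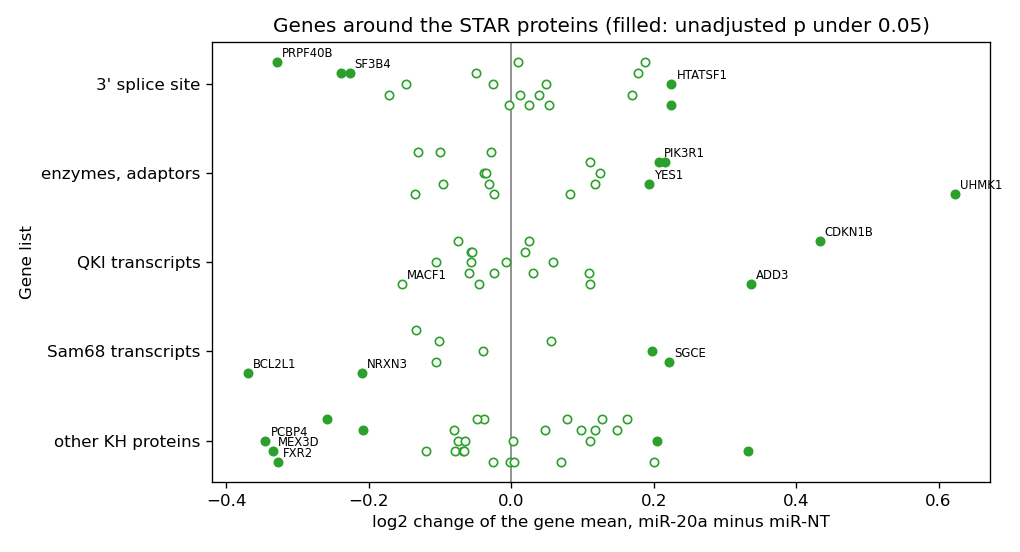
Each point is a gene, placed by the log2 change of its gene mean, miR-20a minus miR-NT, in rows for the 5 lists (offsets within a row only separate points). Filled points have an unadjusted limma p under 0.05, and the 3 genes of smallest p in each list are named. UHMK1 lies farthest from 0, at 0.62, and BCL2L1 is the lowest, at -0.37, while no gene passed after adjustment.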

How the data were processed

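Biotin-labelled cRNA of the 4 samples was read on single-colour Affymetrix arrays, per the labels' protocols. The deposited table holds log2 levels per probe set, and the log base was taken from their range. The R package affy is named, per the submitters' processing notes, with no version. How background was corrected and values were normalized and summarized is not stated in the sources used here, and the deposited scaling was kept. Of 41930 probe sets, 10 array controls were left out, 37465 named 1 gene, 1727 several and 2728 none, through GEO's platform annotation. The symbols of all 19 member probe sets matched RefSeq by Entrez identifier.

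The fits used limma 3.58.1 in R 4.3.3 (lmFit, then eBayes, with group as the only term and no filter), with two-sided p-values adjusted over all features by the Benjamini-Hochberg method. They were run on probe sets, on the mean of all probe sets of a gene, and on each probe set minus the mean of the others of its gene. SE and 95% intervals come from these fits, and SD from the 2 arrays of a group. The members and gene lists were chosen with earlier results of these data known, and the lists were compiled from general knowledge. All member probe sets were described. From each list the 3 genes of smallest p were named, and for QKI the 3 nearest patterns among probe sets above the 40th percentile of mean level. The number of arrays, 4, limits the precision.

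Alternatives were quantile normalization, centring on the median, a block for the replicate number, eBayes with a trend and robust fit, removal of low levels, leaving out each array, an adjusted p threshold of 0.1, other summaries per gene, diffSplice and probe sets naming 1 gene only. A crossed pairing was added after seeing the data.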

Additional observations from a re-analysis of the deposited data

Results flagged for a closer look

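The ACTB and GAPDH array controls, which enter no comparison, were set apart because each miR-20a array exceeded each miR-NT array in the 3′ minus 5′ log2 difference. The means were 0.486 in miR-20a against 0.272 in miR-NT cells for ACTB and 0.275 against 0.222 for GAPDH.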

How the results depend on the processing

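No STAR probe set or gene mean passed under any alternative run. The lowest limma adjusted p over the alternatives was 0.0844, for QKI 212262_at with low levels left out, in a range up to 0.638, and its difference stayed between -0.57 and -0.29. Removing low levels left 13 of the 19 member probe sets. Replicate numbers are shared by the groups, but the labels do not say that a number marks a shared batch. The deviations of same-numbered arrays were only weakly related, with a negative sign (correlation -0.121 over probe sets). With the replicate block, 0 probe sets and 0 gene means passed (limma; 5754 and 2946 at an unadjusted p under 0.05), against 57 and 153 without it, and with the crossed pairing 0 probe sets (7343 at an unadjusted p under 0.05) and 57 gene means.

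The count of probe sets past the threshold was 957 with a trend and robust fit, 334 with low levels left out and 159 at a threshold of 0.1. For gene means it was 647, 809 and 766 in these settings, 250 with median centring, 78 with the brightest probe set and 82 with the median of probe sets. Quantile normalization gave 89 gene means higher and 41 lower, against 125 and 28. The comparison with the other probe sets of a gene gave 37 with diffSplice, which treats the probe sets of a gene as independent, against 4. Leaving out an array leaves 1 array in its group, which is then assumed to vary like the other group, so the adjusted p-values of these fits rest on the spread of a single pair. Leaving out each array gave 0 to 66 probe sets, 1 to 179 gene means and 3 to 16 in the comparison within genes. Without either miR-NT array no probe set passed (limma; 3231 without replicate 1 and 5097 without replicate 2 at an unadjusted p under 0.05), and 16 passed without miR-20a replicate 1. The causes were not tested.

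Small differences changed sign. After quantile normalization KHDRBS1 200040_at was at -0.03, KHDRBS3 209781_s_at at -0.064, the gene means of KHDRBS1 and KHDRBS3 at -0.073 and -0.006, and, against the other probe sets, QKI 236154_at at 0.041 and KHDRBS1 214185_at at 0.11. Median centring put KHDRBS1 201488_x_at at 0.003. The brightest probe set put QKI at 0.18 and SF1 at -0.045, and the median of probe sets put KHDRBS1 at -0.031. Leaving out each array gave ranges of -0.090 to 0.029 for KHDRBS1 201488_x_at, -0.086 to 0.13 for 214185_at, -0.053 to 0.065 for KHDRBS3 209781_s_at, -0.19 to 0.21 for 230249_at, -0.001 to 0.19 for QKI 212636_at, -0.23 to 0.007 for 214543_x_at, -0.019 to 0.12 for 241938_at, -0.11 to 0.016 for SF1 208313_s_at and -0.13 to 0.27 for 210172_at. Against the other probe sets of the gene they were -0.18 to 0.11 for KHDRBS1 214185_at, -0.25 to 0.24 for KHDRBS3 209781_s_at, -0.24 to 0.25 for 230249_at, -0.22 to 0.15 for QKI 214543_x_at, -0.27 to 0.031 for 228540_at, -0.073 to 0.071 for 236154_at, -0.017 to 0.15 for SF1 1555749_at, -0.27 to 0.038 for 208313_s_at and -0.19 to 0.29 for 210172_at. The gene means ranged from -0.12 to 0.14 for KHDRBS3 and from -0.009 to 0.077 for SF1.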
